A study of Homo sapiens with 12 samples.

Results

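The 10 genes described here encode nuclear factors that transcribe mitochondrial DNA or cut, polyadenylate, stabilize and degrade the RNA made from it. They were taken by symbol (POLRMT, TFAM, TFB2M, TEFM, LRPPRC, SLIRP, MTPAP, PNPT1, SUPV3L1 and ELAC2), and all 10 were found among the 60609 genes listed in the RNA-seq count files. The libraries came from K562, an established human leukemia line of chronic myeloid origin with erythroid features. Cells were treated for 48 h with the solvent DMSO (3 libraries) or with 10 μM FT671 (3 libraries), a small molecule that inhibits the deubiquitinase USP7, and the study speaks of independent experiments. No other allele or agent was given to either group, so the data show 1 inhibitor at 1 dose and 1 time in 1 line. Total RNA was depleted of ribosomal RNA before sequencing, and the authors deposited the raw read count of each gene.

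Human mitochondrial DNA is copied into long RNAs from both strands by a single-subunit polymerase, POLRMT. TFAM bends the promoter DNA, TFB2M melts it, and TEFM keeps the polymerase on the template. The long RNAs are then cut at the tRNAs that punctuate them, with ELAC2 cutting at the tRNA 3′ ends. MTPAP adds poly(A) tails, LRPPRC with its partner SLIRP holds the mRNAs in a stable pool, and the exonuclease PNPT1 with the helicase SUPV3L1 degrades them.

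Total counts ranged from 4555220 to 14250500 per library, and 3 counts, taken as the smallest detectable level, corresponded to between 0.211 and 0.659 CPM, the count relative to the total of the library. This floor covers counting error only. The 10 genes had between 19 and 5440 counts in a library, so that all lay above it. Expression is given as CPM scaled by edgeR's TMM method, and adjusted p-values come from edgeR's quasi-likelihood test over the 13895 genes that passed a filter on low counts, which all 10 genes did. DMSO replicate 3 stood apart from its group, its gene counts giving a chi-square of 7.55 and 8.73 per degree of freedom against replicates 1 and 2, while other pairs within a group gave 2.07 to 3.2. All 10 K562 marker genes had counts in every library, although HBE1, with 2 counts in DMSO replicate 3, lay under the floor there, and CDKN2A, which is deleted in this line, had 1 count in all. Their summed level was 2052 to 2074 CPM in DMSO and 1344 to 1432 CPM after FT671, a sum carried by TFRC, ABL1, BCR and GATA1. The fetal globin genes HBG1 and HBG2 of the same list, near-identical copies whose reads may be split between them, went the other way, by 1.41 and 1.22 on the log2 scale. For 14 markers of other lineages it was 263 to 289 and 290 to 311 CPM, carried mostly by KRT19 and EPCAM, while MS4A1, CDH5 and INS had 0 counts throughout. The part of these marker differences in the results was not tested.

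After FT671, SLIRP, PNPT1, SUPV3L1 and ELAC2 were higher and POLRMT and TFB2M were lower below an adjusted p-value of 0.05, while TFAM, TEFM, LRPPRC and MTPAP did not pass it. Among all genes tested 50.1% passed in either direction, 23.6% as higher and 26.5% as lower, so 6 of 10 is close to the share in the whole transcriptome. At the stricter threshold of 1e-05, edgeR called SLIRP higher and POLRMT lower, where 1.79% and 4.13% of all genes passed (5.92% in either direction). With the DESeq2 Wald test, SLIRP, PNPT1, SUPV3L1 and ELAC2 were higher and POLRMT lower at 1e-05 (adjusted p at most 5.73e-07). DESeq2 is also the package that the paper used for its own calls. In edgeR fits without DMSO replicate 3, 4 of the 10 were higher at 1e-05, and without DMSO replicate 1 or 2 or FT671 replicate 2 or 3 there were 0. Their log2 fold changes had a median of 0.26, beside −0.010 over all genes tested. In 4 of the 10 every FT671 library was above every DMSO library and in 2 every FT671 library was below, which 26.8% and 30.3% of all genes also showed (57.1% for both directions). After a correction for gene length 7 of the 10 genes were called higher at 0.05, with a median of 0.44, and TFAM, LRPPRC and MTPAP were the ones added. A correction for GC content and the fit without DMSO replicate 3 also gave 7, and scaling by DESeq2 size factors gave 6. The shares of all genes above come from the TMM-scaled edgeR fit of all 6 libraries without corrections. Shares under the other fits are not given here, so their counts have no such comparison.

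**Figure D1:**
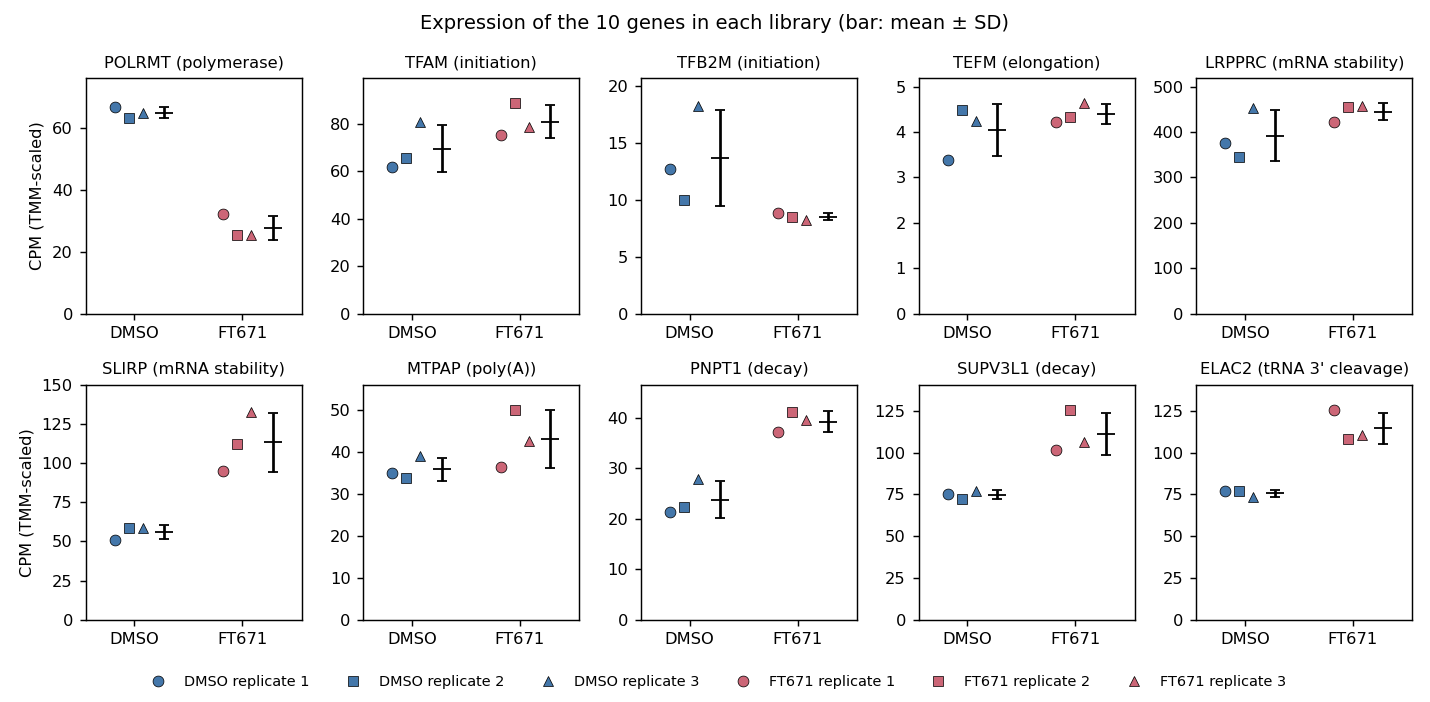
Expression of the 10 genes in CPM (vertical axes, each starting at 0) in the 3 DMSO and 3 FT671 libraries, with 1 point per library and the mean ± SD beside them. POLRMT fell from about 65 to about 28 CPM and SLIRP rose from about 56 to about 113 CPM, while the points of TFAM, TEFM, LRPPRC and MTPAP overlapped between the groups.

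POLRMT, the polymerase itself, had the lowest log2 fold change of the 10 genes. The gene (ENSG00000099821) lies on chromosome 19 from 617221 to 633537 in hg38, on the minus strand. Its expression was 67.1, 63.4 and 64.9 CPM in DMSO replicates 1, 2 and 3 and 32.2, 25.4 and 25.4 CPM in FT671 replicates 1, 2 and 3. The FT671 libraries were all below the DMSO libraries, by far more than the libraries of a group differed among themselves. The log2 fold change was −1.25 (standard error, SE, 0.107; edgeR adjusted p = 6.53e-07), a level 2.38-fold lower than in DMSO. As the libraries are bulk RNA scaled to their own totals, fewer cells expressing a gene and less of its RNA per cell cannot be told apart. Over 18 alternative fits it stayed between −1.35 and −1.14, and it passed 0.05 in all of them. It missed 1e-05 without FT671 replicate 2 (edgeR adjusted p = 1.71e-05) and without FT671 replicate 3 (edgeR adjusted p = 4.38e-05). By the size of its change POLRMT ranked 800 of the 13895 genes tested.

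TFB2M, the initiation factor that opens the promoter, was the other gene that fell. It lies on chromosome 1 from 246540561 to 246566261. DMSO replicates 1, 2 and 3 had 12.7, 9.98 and 18.3 CPM and FT671 replicates 1, 2 and 3 had 8.88, 8.48 and 8.22 CPM. The groups did not overlap, but the DMSO libraries were spread widely, with replicate 3 highest. The log2 fold change was −0.63 (SE 0.202, edgeR adjusted p = 0.0180). It was −0.45 (edgeR adjusted p = 0.0223) without DMSO replicate 3, and without FT671 replicate 3 the call was lost (log2 fold change −0.60, edgeR adjusted p = 0.0819).

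TFAM, which packages mitochondrial DNA and also starts its transcription, was not called. On chromosome 10 from 58385345 to 58399220, it measured 62.0, 65.9 and 80.8 CPM in DMSO and 75.5, 88.8 and 78.9 CPM after FT671. DMSO replicate 3 lay within the FT671 range. The log2 fold change of 0.24 (SE 0.105, edgeR adjusted p = 0.0757) did not pass 0.05. It was 0.34 (edgeR adjusted p = 7.23e-04) without DMSO replicate 3 and 0.41 (edgeR adjusted p = 0.00124) after the gene length correction. With DESeq2 size factors in the same test it just passed, at 0.26 (edgeR adjusted p = 0.0490). TEFM, the elongation factor, was the least expressed of the 10 genes, with 3.39, 4.49 and 4.25 CPM in DMSO and 4.22, 4.33 and 4.65 CPM after FT671 (chromosome 17, 30897336 to 30906238). These values overlapped, and from 19 to 52 counts per library the difference of 0.16 on the log2 scale (SE 0.215) could not be told from 0 at this depth (edgeR adjusted p = 0.554). TEFM shares 542 bases of exon with an lncRNA gene on the opposite strand (ENSG00000275185) that had 2 to 17 counts per library.

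Ratios of 2 genes within a library do not depend on how libraries are scaled, though they were not corrected for gene length. The log2 ratio of TFB2M to TFAM was −2.28, −2.72 and −2.14 in DMSO and −3.07, −3.37 and −3.26 after FT671. It differed by −0.86 between the group means, with every FT671 library below every DMSO library. The log2 ratio of TEFM to POLRMT was −4.29, −3.81 and −3.90 in DMSO and −2.90, −2.53 and −2.44 after FT671, a difference of 1.38. For both, a 2-sided exact permutation test gave p = 0.1 (0.133 adjusted over 4 ratios), the smallest p that 3 libraries against 3 allow, so that no ratio could pass 0.05 in this design.

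**Figure D2:**
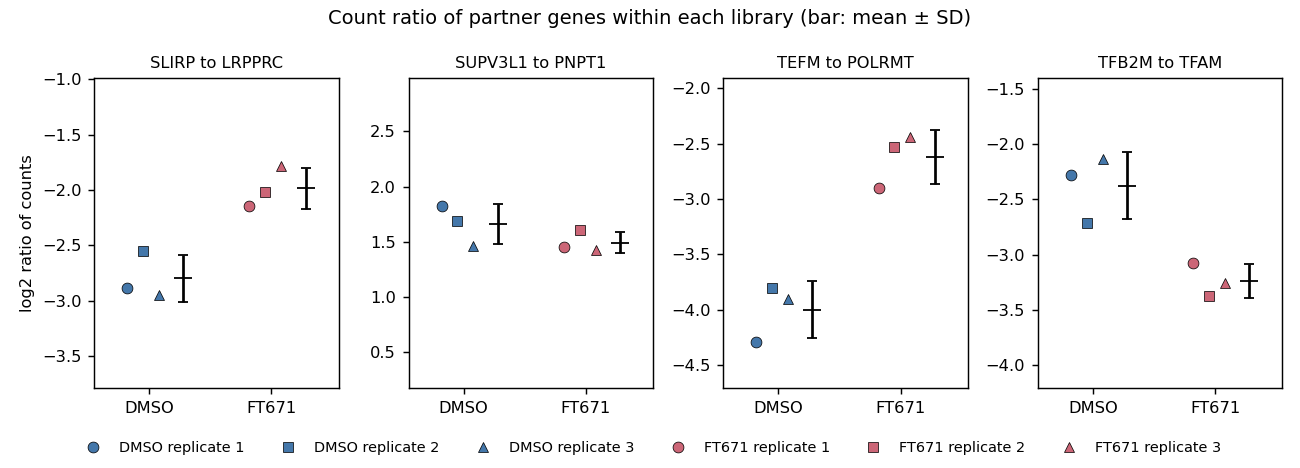
Log2 ratio of the counts of partner genes within each library (vertical axes, each spanning the same range), with 1 point per library and the mean ± SD. The DMSO and FT671 points separate for SLIRP to LRPPRC, TEFM to POLRMT and TFB2M to TFAM, and overlap for SUPV3L1 to PNPT1.

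SLIRP, a small RNA-binding protein that works with LRPPRC on mitochondrial mRNAs, rose most. Its gene lies on chromosome 14 from 77708071 to 77761104. Expression was 50.8, 58.7 and 58.6 CPM in DMSO replicates 1, 2 and 3 and 95.3, 112 and 132 CPM in FT671 replicates 1, 2 and 3. All FT671 libraries lay well above the DMSO libraries, though they differed more among themselves. This was a log2 fold change of 1.03 (SE 0.112, edgeR adjusted p = 5.47e-06), or 2.05-fold. It ranged from 0.89 to 1.14 over the 18 alternatives and passed 0.05 in each. The stricter call at 1e-05 was lost without DMSO replicate 1 or 2, without FT671 replicate 2 or 3 (edgeR adjusted p between 2.26e-05 and 1.09e-04) and, narrowly, after the gene length correction (edgeR adjusted p = 1.09e-05). SLIRP shares 118 bases of exon with SNW1 on the opposite strand, and since the strand setting of the counting is not given in the sources used here, reads there cannot be assigned. It also shares 271 exon bases with C14orf178, an lncRNA gene on the same strand, where strand cannot separate the reads. C14orf178 had 0 to 2 counts per library. SNW1, with 668 to 1945 counts per library, changed by 0.24 on the log2 scale.

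LRPPRC, the large pentatricopeptide-repeat partner of SLIRP, had by far the most counts of the 10 genes. On chromosome 2 from 43886224 to 43996226, it measured 377, 345 and 454 CPM in DMSO and 423, 455 and 457 CPM after FT671. DMSO replicates 1 and 2 were below the FT671 libraries and DMSO replicate 3 was among them. The log2 fold change of 0.19 (SE 0.0911, edgeR adjusted p = 0.101) did not pass 0.05. Without DMSO replicate 3 it was 0.30 (edgeR adjusted p = 1.76e-04), and after the gene length correction 0.42 (edgeR adjusted p = 8.98e-05). Within libraries, the log2 ratio of SLIRP to LRPPRC was −2.89, −2.55 and −2.95 in DMSO and −2.15, −2.02 and −1.79 after FT671. The groups were apart by 0.81, or 1.76-fold (2-sided exact permutation test, p = 0.1, the smallest possible). The ratio was not taken with the gene length correction, under which the log2 fold change was 0.94 for SLIRP and 0.42 for LRPPRC.

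MTPAP, the mitochondrial poly(A) polymerase, lies on chromosome 10 from 30309801 to 30374448. Its values were 35.0, 33.7 and 39.0 CPM in DMSO and 36.4, 50.2 and 42.6 CPM after FT671. The groups overlapped through FT671 replicate 1, which lay below DMSO replicate 3. A log2 fold change of 0.28 did not pass 0.05 (SE 0.119, edgeR adjusted p = 0.0660). It became 0.32 (edgeR adjusted p = 0.0102) without DMSO replicate 3, 0.37 (edgeR adjusted p = 0.0224) without FT671 replicate 1 and 0.46 (edgeR adjusted p = 0.00208) after the gene length correction, and with DESeq2 size factors it was 0.30 (edgeR adjusted p = 0.0468). An lncRNA gene on the opposite strand (ENSG00000285824), with 4 to 33 counts per library, shares 1120 of its exon bases. On the same strand, the pseudogene GOLGA2P6 shares 1626 exon bases with MTPAP and MIR7162 shares 54. Both had 0 counts in every library.

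Both genes of the mitochondrial RNA degradosome rose. PNPT1, the 3′ to 5′ exonuclease polynucleotide phosphorylase, lies on chromosome 2 from 55634061 to 55693863. Its level was 21.3, 22.3 and 27.9 CPM in DMSO and 37.1, 41.1 and 39.5 CPM after FT671, a clear gap between the groups. On the log2 scale it rose by 0.75 (SE 0.118, edgeR adjusted p = 1.35e-04). SUPV3L1, the helicase that unwinds RNA for PNPT1, lies on chromosome 10 from 69180234 to 69209099. Its level was 75.5, 72.1 and 77.1 CPM in DMSO and 102, 125 and 106 CPM after FT671. Again no FT671 library was within the DMSO range. SUPV3L1 rose by 0.57 on the log2 scale (SE 0.0890, edgeR adjusted p = 1.30e-04). Across the alternatives PNPT1 stayed between 0.61 and 0.90 and SUPV3L1 between 0.48 and 0.63, and both passed 0.05 in all 18.

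The proportion of the degradosome genes to each other was compared in the same way. The log2 ratio of SUPV3L1 to PNPT1 was 1.83, 1.69 and 1.46 in DMSO and 1.45, 1.6 and 1.42 after FT671. The difference of −0.17 had overlapping groups (2-sided exact permutation test, p = 0.2), and 0.2 does not show that the ratio was equal.

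ELAC2, the endonuclease that frees tRNA 3′ ends and acts in both the nucleus and mitochondria, lies on chromosome 17 from 12991612 to 13018065. DMSO replicates 1, 2 and 3 had 76.8, 77.0 and 73.4 CPM, and FT671 replicates 1, 2 and 3 had 125, 108 and 110.5 CPM. The DMSO libraries were tightly grouped and all FT671 libraries exceeded them. ELAC2 rose by 0.59 on the log2 scale (SE 0.0815, edgeR adjusted p = 4.55e-05), with values between 0.53 and 0.70 over the alternatives. ELAC2 overlaps ARHGAP44 by 32 bases at its end, and that gene had 2 to 13 counts per library.

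**Figure D3:**
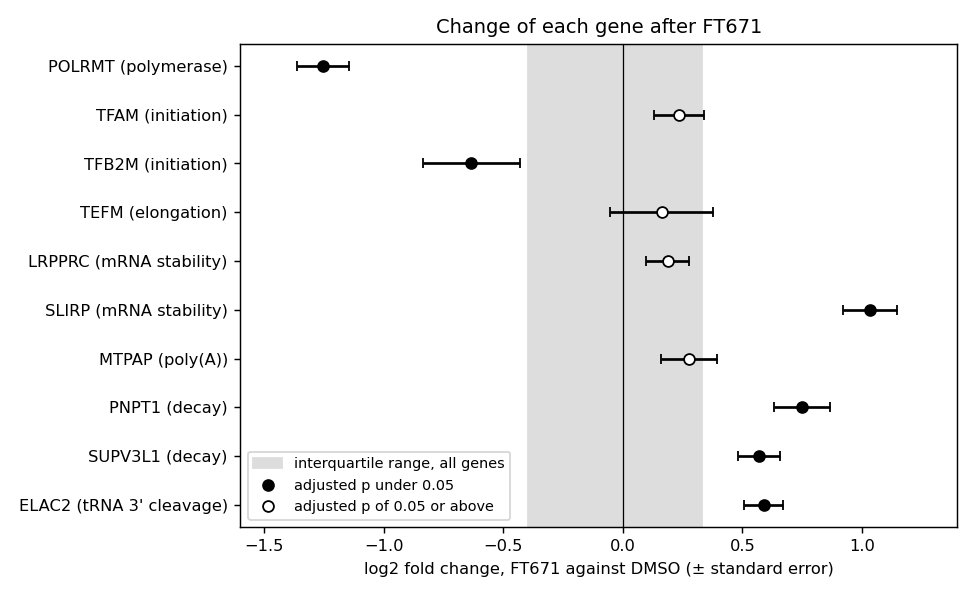
Log2 fold change of each gene after FT671 (horizontal axis, with its standard error), with filled points for an adjusted p-value under 0.05 and a grey band for the interquartile range of all genes tested, from −0.40 to 0.33. POLRMT and TFB2M lie to the left of the band, SLIRP, PNPT1, ELAC2 and SUPV3L1 to the right, and the other 4 genes within it.

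Per kilobase of the canonical transcript, the order in DMSO was SLIRP at 149 ± 12 CPM per kb, LRPPRC at 59.4 ± 8.49, SUPV3L1 at 30.2 ± 1.03, ELAC2 at 20.1 ± 0.542, POLRMT at 17.3 ± 0.496 and TFAM at 13.8 ± 1.98 (SD, n = 3). Below them stood TFB2M at 7.67 ± 2.37 CPM per kb, MTPAP at 6.46 ± 0.497, PNPT1 at 5.23 ± 0.789 and TEFM at 3.10 ± 0.441. The libraries of TFB2M and MTPAP overlapped, as did those of MTPAP and PNPT1, so these neighbours had no clear order, while other neighbours were apart. After FT671, POLRMT stood at 7.34 ± 1.04 CPM per kb, under TFAM at 16.1 ± 1.37, and within the libraries of MTPAP at 7.75 ± 1.24 (SD, n = 3). PNPT1 stood at 8.63 ± 0.447 CPM per kb, and its libraries overlapped those of MTPAP. The order rests on the transcript length used. With the length of all annotated exons, chosen after the data were seen, LRPPRC stood at 11.3 and SLIRP at 21.3 CPM per kb in DMSO, since their canonical transcripts cover 6603 of 34689 and 376 of 2631 annotated exon bases.

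The promoters of the 10 genes are shown here where they hold letters that match factors known for mitochondrial genes, to set genes that rose, fell or were not called side by side. RefSeq promoter windows (250 bases before to 50 after the start, GRCh38.p14) were found for all 10 genes, 11 windows in all as SLIRP has 2, and were searched on both strands. The palindromic NRF1 site, given by the capitals of the POLRMT window printed first, was present in the window of POLRMT alone, where another match of its looser form overlaps it, and in 1.24% of 35116 promoters. The looser form, which lets the sixth base be any base, was present in POLRMT and TFAM, and in 5.78% of all promoters. The ETS or GABPA core CCGGAAG was present in POLRMT, TEFM, SLIRP and ELAC2 (10.3% of all promoters), and the YY1 core AAGATGG in LRPPRC and SLIRP (5.84%). In the windows below, written 5′ to 3′ on the strand of the gene, capitals mark the match, which reads as the reverse complement where it lies on the opposite strand.
POLRMT, NRF1, chr19:633542-633571, minus strand: ggcggcgcggGCGCATGCGCaggcgcgggc
TFAM, NRF1 looser form, opposite strand, chr10:58385337-58385366, plus strand: acgctctcccGCGCCTGCGCcaattccgcc
POLRMT, ETS, opposite strand, chr19:633612-633641, minus strand: ctgggagtctaCTTCCGGctggggtttccc
SLIRP, ETS, chr14:77708016-77708045, plus strand: taccctctgatCCGGAAGcagattctctcg
ELAC2, ETS, chr17:13018232-13018261, minus strand: gcactgtgcttCCGGAAGtcccgccccagg
The ETS letters stood in promoters of genes that rose (SLIRP, ELAC2), fell (POLRMT) and did not pass the test (TEFM). A match of letters is a description of the window and not a binding site.

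The genes for these factors were measured in the same libraries. Of 9 nuclear regulators of mitochondrial genes, 8 were tested, and by edgeR 4 were lower and 0 higher with an adjusted p-value under 0.05 (0 higher at an unadjusted p of 0.05 and 0 with DESeq2), with a median log2 fold change of −0.30, where 26.5% of all genes were lower and 23.6% higher. PPARGC1B, a coactivator of mitochondrial genes, had a log2 fold change of −0.65 (edgeR adjusted p = 4.42e-05). NRF1, the factor of the site above, had −0.63, from 31.3 ± 3.42 to 19.99 ± 2.56 CPM (SD, n = 3, edgeR adjusted p = 7.98e-04). ESRRA, an orphan nuclear receptor, had −0.61 (edgeR adjusted p = 3.35e-04). GABPB2 was lower as well, at −0.46 (edgeR adjusted p = 0.0151). GABPA (−0.073), GABPB1 (0.0029) and YY1 (−0.15) did not pass 0.05 (edgeR adjusted p = 0.619, 0.986 and 0.0944). PPARGC1A had 1 count in the 6 libraries and was not tested. After the gene length correction 1 gene of the list was called higher and 3 were called lower.

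The RNAs on which the 10 proteins act were counted in the same libraries. The 13 mitochondrial mRNAs held 2.58% to 2.81% of all counts in the DMSO libraries and 1.47% to 1.75% after FT671. Of the 12 transcribed from the heavy-strand promoter, 11 were lower and 1 was higher at an adjusted p-value of 0.05, in every alternative, with a median log2 fold change of −0.76, beside 26.5% lower and 23.6% higher among all genes tested. The 12, which come from a shared precursor, spanned a wide range. The log2 fold change was −3.16 for MT-CYB, −2.64 for MT-CO3 and −1.81 for MT-ND2, whereas MT-CO1 rose by 0.56 (edgeR adjusted p = 5.85e-05). The level of MT-CO1 went from 3434 ± 47.4 CPM to 5044 ± 526 CPM and that of MT-CO3 from 6297 ± 912 CPM to 1007 ± 66.9 CPM (SD, n = 3). MT-ND6, the mRNA of the other strand, changed by −0.58 (SE 0.124, edgeR adjusted p = 0.00158), but with the strand setting unknown, reads of the opposite strand may be counted in it. Nuclear copies of mitochondrial genes can take or give reads as well, so these values are uncertain. The rRNAs MT-RNR1 and MT-RNR2 had 5.21 ± 2.69 and 4.61 ± 1.30 CPM in DMSO (SD, n = 3) in these rRNA-depleted libraries, and 5.81 ± 1.79 and 5.08 ± 2.17 CPM after FT671. Leaving the 37 mitochondrial genes out of the scaling left POLRMT at −1.25 and SLIRP at 1.03.

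**Figure D4:**
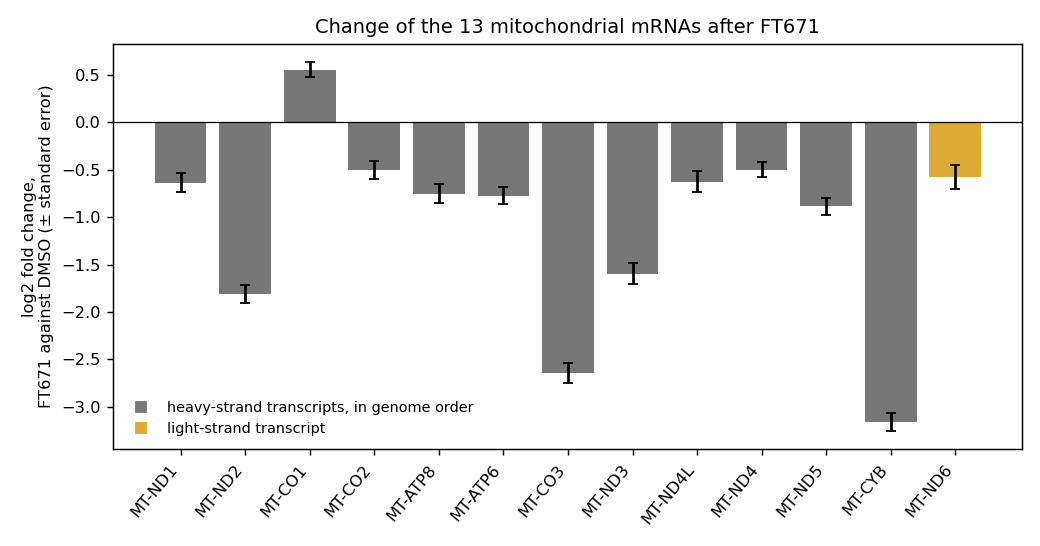
Log2 fold change (vertical axis, with its standard error) of the 13 mitochondrial mRNAs after FT671, the 12 heavy-strand transcripts in their order on the genome and MT-ND6 of the light strand last. MT-CYB, at −3.16, is lowest and MT-ND2, MT-ND3 and MT-CO3 come next, while MT-CO1 is the single bar above 0.

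Other genes of mitochondrial RNA metabolism were called about as often as genes in general, of which 23.6% were higher and 26.5% lower, or 50.1% in all. Of 26 further genes for RNA processing and modification, 25 were tested, of which 10 were higher and 3 lower at an adjusted p-value of 0.05, with a median log2 fold change of 0.23. The share higher was thus larger and the share lower smaller than among all genes, a difference that was not tested. QTRT1 and NSUN2, which modify tRNA, rose by 0.79 and 0.69 on the log2 scale, and TRNT1, which adds CCA to the tRNA ends that ELAC2 makes, rose by 0.66 (edgeR adjusted p = 4.42e-04, 4.22e-06 and 6.46e-04). TRMT61B, MTO1 and TRMU, which also modify mitochondrial tRNA, had log2 fold changes of −1.06, −0.89 and −0.46 (edgeR adjusted p = 0.00165, 1.74e-05 and 0.0216), and the call of TRMU was lost when DMSO replicate 1, FT671 replicate 2 or FT671 replicate 3 was left out, with log2 fold changes between −0.49 and −0.38. It was also lost with the DESeq2 Wald test (−0.44), after the GC correction (−0.35) and after thinning to the smallest total (−0.40). MRM2 was not tested, with at most 5 counts in a library. Several of these enzymes also act outside mitochondria.

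Among 11 genes for mitochondrial RNA turnover and binding, 4 were higher and 1 lower, together near the 50.1% called among all genes. Here too the share higher was above the 23.6% of all genes and the share lower below their 26.5%, which was not tested. The median of the 11 genes was −0.046. PTCD2 and PTCD3, pentatricopeptide proteins of the family to which LRPPRC belongs, rose by 0.85 and 0.64 on the log2 scale, and REXO2, which degrades very short RNAs, rose by 0.54 (edgeR adjusted p = 1.18e-04, 8.39e-05 and 1.22e-04). ENDOG, a nuclease, was lower by a log2 fold change of −0.40 (edgeR adjusted p = 0.0144), a call lost without DMSO replicate 1 (−0.32) and without FT671 replicate 2 (−0.35) or 3 (−0.33) and after thinning (−0.33). Of 15 genes that maintain mitochondrial DNA, 4 were higher and 4 lower, again near 50.1%, with a median of 0.0067. MTERF2, TOP1MT and DNA2 rose by 0.75, 0.59 and 0.48, and FEN1, TWNK (the replicative helicase) and MGME1 had −0.73, −0.55 and −0.50 on the log2 scale (adjusted p from edgeR between 1.72e-05 and 0.00304). All these medians stand beside −0.010 for all genes.

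Across the 6 libraries, the log2 CPM of SLIRP was most like that of RNU2-27P, XRCC6 and KLK1 (Pearson's r between 0.996 and 0.997). POLRMT was most like ASB13, PPP1R26 and STRN4 (r between 0.999 and 1). The 2 genes ran opposite to each other, with r = −0.985. The log2 fold changes of these matches were 2.02, 0.24 and 0.84 for SLIRP and −1.36, −1.39 and −0.78 for POLRMT. These values describe 6 libraries that fall into 2 treated groups and share their scaling. A steady difference between the groups, large or small, is enough for a high r.

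**Figure D5:**
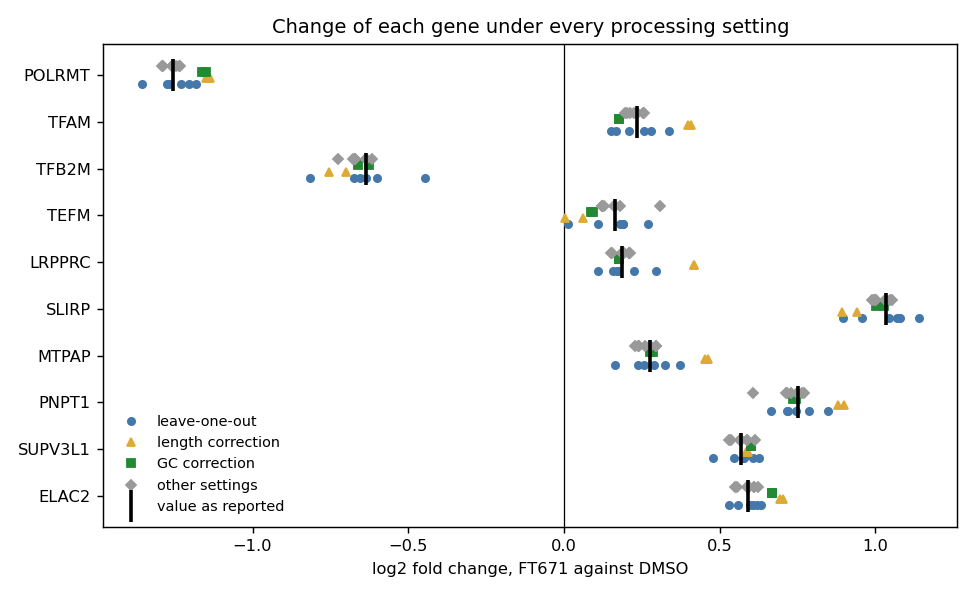
Log2 fold change of each gene (horizontal axis) under all 18 alternative settings, with a black bar for the value reported in the text. Points of SLIRP, PNPT1, SUPV3L1 and ELAC2 stay above 0 and those of POLRMT and TFB2M below 0, and the gene length correction moves LRPPRC, TFAM and MTPAP farthest to the right.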

How the data were processed

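The 6 RNA-seq libraries were compared as 3 DMSO against 3 FT671, grouped by their GEO titles. Histone mark ChIP samples (6 of 12) were not analysed here. The authors deposited raw read counts per gene, which according to the paper's methods STAR collected in two-pass mode on hg38, the build also named in the submitters' processing notes. The annotation release and the strand setting are not given in the sources used here. Symbols, positions and lengths came from GENCODE release 44, which matched 60340 of 60609 identifiers, and the 269 others held at most 0.0686% of a library's counts.

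Counts were filtered with filterByExpr, scaled by TMM and fitted without covariates by glmQLFit in edgeR 4.0.16 (R 4.3.3), with Benjamini-Hochberg adjustment over all genes tested. The standard error is the log2 fold change divided by the square root of F. Calls were made at 0.05 and at 1e-05. The stricter cutoff is that of the paper's methods, where it was set on adjusted p-values from DESeq2 and not from edgeR. Partner ratios used counts plus 0.5. Alternatives were another scaling, filter or tool (DESeq2 1.42.0), the replicate number as a block, loess corrections (span 0.3) for length and GC content, thinning to the smallest total and each library left out. The fits were tested on simulated data. The genes, the context lists and the tests were chosen with earlier results of these data known. The text names all 10 genes and, from each context list, up to 3 called genes per direction with the largest change. From the regulator list it also names the GABP genes and YY1, as their sites were searched. Libraries of the same group differed by more than counting error.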

Additional observations from a re-analysis of the deposited data

How the results depend on the processing

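All 10 genes kept their direction in the 18 alternatives, and SLIRP, PNPT1, SUPV3L1, ELAC2 and POLRMT kept their call at 0.05. The number called higher at 0.05 was 7 with the length or GC correction, with or without the replicate block, 6 with DESeq2 size factors, and 4 to 7 with a library left out; the number called lower was 1 to 2 with a library left out. At 1e-05 the number higher was 4 without the filter, with DESeq2's Wald test, with the length correction plus block and with the GC correction (with or without block), 2 with the length correction alone, and 0 to 4 with a library left out, and the number lower was 0 to 1. The median of the 10 genes was 0.441 with the length correction and 0.436 with the block added. In the turnover list the number lower was 0 after thinning and 0 to 2 with a library left out. In the regulator list 1 gene was higher and 3 were lower with the length correction, with or without the block. The difference between the groups in the log2 ratio of SUPV3L1 to PNPT1, −0.17 as reported, was 0.00067 after thinning. Shares of all genes called under these settings are not given here, and the cause of these shifts was not tested.

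Whether the replicate numbers pair the libraries could not be told, as the correlations were weak. Deviations from the group mean, over genes, correlated at 0.115, −0.0605 and 0.14 for numbers 1, 2 and 3. The same number was the best match for DMSO replicates 1 and 3, while DMSO replicate 2 correlated best with FT671 replicate 1 (0.125). With the replicate block POLRMT was at −1.25 and SLIRP at 1.003, and LRPPRC gained a call (0.19, adjusted p = 0.0454 from edgeR). Depth limits TEFM most, with 19 counts in its lowest library.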
